A study of Mus musculus with 6 samples.

Results

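Potassium channel genes were followed in cultured mouse hepatic stellate cells given forskolin or solvent. The 94 members are all protein-coding rows of the deposited table whose symbol begins with Kcn, out of 24940 rows. They were chosen by symbol, while the subset called expressed was selected on its read counts. The family itself, and Kcne4 as its leading gene, were picked with the forskolin response of these libraries already known, so the change of Kcne4 is given as a description. The primary cells came from livers of female wild-type C57BL/6JBomTac mice and spent 2 days in culture. They then received 5 µM forskolin, which activates adenylyl cyclase and so raises cAMP, or the same volume of its solvent DMSO, for 3 h. Each group held 3 libraries, named A, B and C. The labels do not say whether these came from separate mice or isolations, and each p-value therefore reflects the spread among these samples alone, part of which may be technical.

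Potassium channels let potassium leave the cell and hold the membrane potential at negative values. In contractile cells such as smooth muscle and pericytes, opening them closes voltage-gated calcium channels and favours relaxation. Cyclic AMP is best known to act on these channels through protein kinase A, which phosphorylates existing channel proteins. The family is built from pore-forming subunits (voltage-gated, inwardly rectifying, tandem-pore and calcium-activated) and from accessory subunits that bind a pore-forming partner and change its gating or its traffic to the membrane. Stellate cells are the contractile pericytes of the liver sinusoid, which store vitamin A when quiescent.

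Library totals ran from 2770628 counts in forskolin C to 10607997 in forskolin B, and DMSO C, at 3025990, was the other shallow library. In the C libraries, low values clustered on multiples of 3. Among values above 0 and up to 16 counts, multiples of 3 made up 69.2% in forskolin C and 74.9% in DMSO C, against 27.4% to 38.7% in the other 4 libraries. The cause was not tested, and in the C libraries a count may not be an independent molecule. A floor of 3 counts was set as the limit for a gene without counts, although lower values do occur. It equals 0.279 CPM (counts scaled to library size) in forskolin B and 1.17 CPM in forskolin C. This floor covers counting error only and assumes independent counts, so it may be too low in the C libraries. All 10 fixed stellate cell markers were expressed, with a summed level of 1232 to 1402 CPM in DMSO and 1242 to 1521 CPM with forskolin. Summed markers of hepatocytes, endothelium, cholangiocytes and lymphocytes reached at most 13.5 CPM in any library. Those of macrophages were at 18.7 to 22.6 CPM in DMSO and 13.8 to 18.2 CPM with forskolin, and those of vascular smooth muscle, mostly Rgs5, at 65.1 to 85.1 CPM over all libraries. Krt7 of the cholangiocyte markers and Nkg7 of the lymphocyte markers had no count at all. In the same lists Krt19, Sox9 and Cd79a were expressed, with 69.5, 126 and 127 counts over all libraries.

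Most of the family was silent or close to it. Of the 94 genes, 15 were expressed, meaning that they passed edgeR's filter on low counts (about 1.23 CPM in at least 3 libraries), 58 had some counts but too few, and 21 had none. Of the members with too few counts, 17 had counts in just 1 library and 17 in 2, with a median of 9 counts over all 6 libraries. By total counts, the members nearest to the filter but outside it were Kcnh2 (71 counts in 4 libraries), Kcng2 (47 counts in 3 libraries) and Kcnj4 (44.5 counts in 5 libraries). The expressed members began at 45 counts. Expressed were 5 of 40 voltage-gated pore subunits, 3 of 12 accessory subunits of voltage-gated channels, 2 of 15 inward rectifiers, 4 of 14 tandem-pore channels, and Kcnrg. None of the 8 calcium- or sodium-activated channel genes and none of the 4 genes for beta subunits of the large-conductance calcium-activated channel passed. In bulk samples, fewer cells expressing a gene and less of its RNA per cell cannot be told apart.

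Levels between genes are compared as CPM per kilobase of the deposited transcript length. In DMSO, Kcne4 stood at 13.8 ± 0.425 CPM per kb (mean ± SD, n = 3), Kcnk5 at 10 ± 4.47, Kcnj8 at 5.01 ± 0.597 and Kcnip3 at 4.63 ± 0.673. The SDs of Kcne4 and Kcnk5 overlapped, as did those of Kcnj8 and Kcnip3. The next expressed genes were Kcnk6 at 1.5 ± 0.665 CPM per kb and Kcnrg at 1.05 ± 0.227, and the other expressed members were lower. Against all expressed genes of the table, the DMSO level of Kcne4 lay at the 53.3rd percentile and that of Kcnk6 at the 13.9th. With forskolin the order at the top became Kcne4 (99.2 ± 3.87 CPM per kb, 93.3rd percentile), Kcnj8 (24.2 ± 14.1) and Kcnk5 (20.5 ± 3.76), the last pair within each other's SD.

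**Figure D1:**
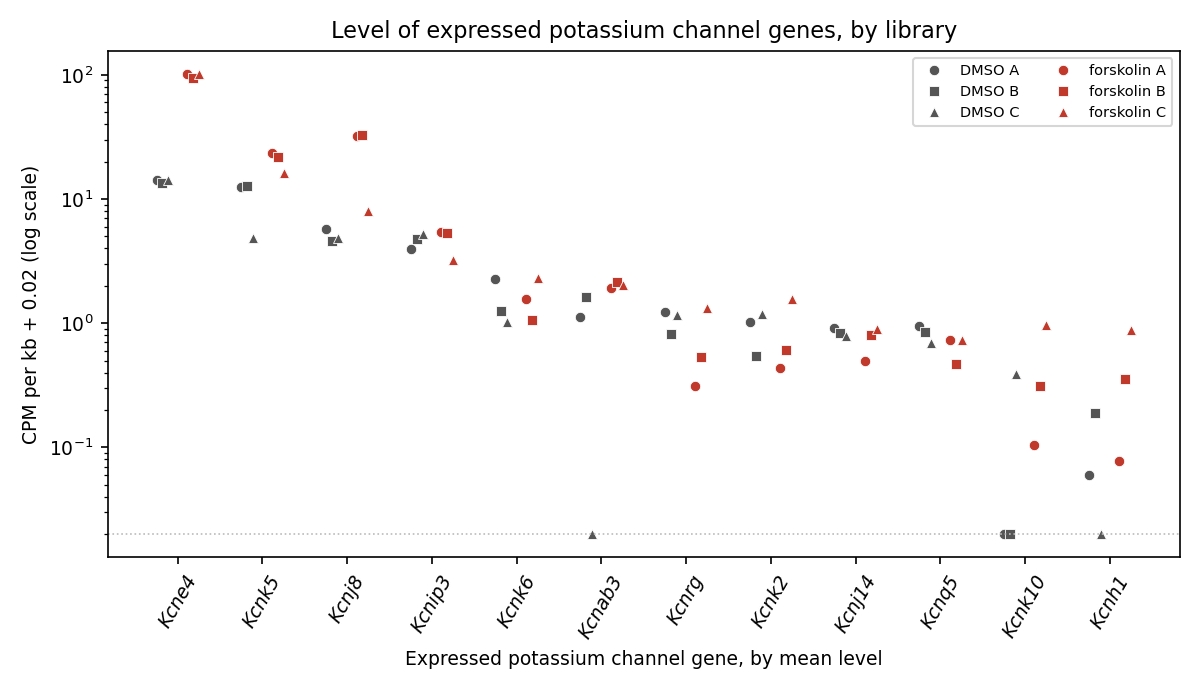
Level of 12 of the 15 expressed potassium channel genes in each library, as CPM per kb plus 0.02 on a log axis; circles, squares and triangles are replicates A, B and C, grey is DMSO and red is forskolin, and the dotted line marks a value of 0. Kcne4, Kcnj8, Kcnk5 and Kcnab3 are the genes whose forskolin values all lie above their DMSO values.

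Summed over the 94 genes, the family went from 143 to 148 CPM in DMSO to 404 to 474 CPM with forskolin. Kcne4 alone gave 22.6% to 24.6% of the family's counts in DMSO and 52.4% to 62.6% with forskolin. With Kcne4, Kcnj8 and Kcnk5 set aside, the other 91 genes summed to 56.2, 60 and 79.0 CPM in DMSO A, B and C, and to 59.1, 58.7 and 76.6 CPM in forskolin A, B and C. These ranges overlapped, and the C library was the highest in both groups. The 3 genes set aside are the expressed members with an unadjusted p under 0.05 in this same comparison. A remainder with little change thus follows in part from that choice, and the split is a description.

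**Figure D2:**
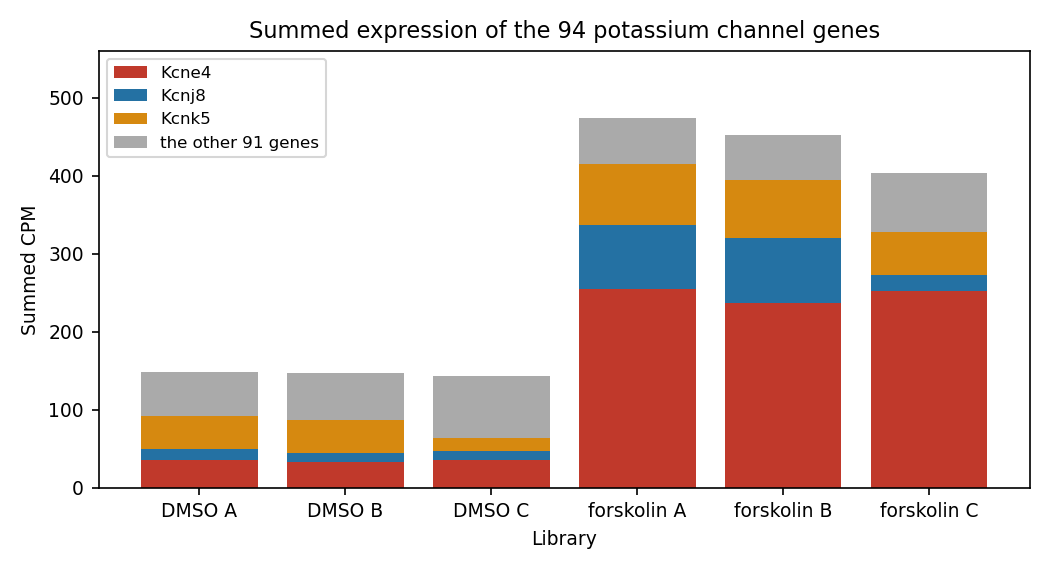
Summed expression (CPM) of all 94 potassium channel genes in each of the 6 libraries, as stacked bars split into Kcne4, Kcnj8, Kcnk5 and the other 91 genes. The grey part spans 56.2 to 79.0 CPM, while the coloured part is larger in every forskolin library. The coloured genes are the expressed members with an unadjusted p under 0.05 in this same comparison.

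In the fit over all 12233 tested genes (edgeR's quasi-likelihood test, Benjamini-Hochberg adjusted p under 0.05), 2 of the 15 expressed members were called higher, Kcne4 and Kcnj8, beside 2.22% of all genes. No member was called lower, beside 0.572% of all genes. At an unadjusted p under 0.05 there were 3 members, the third being Kcnk5, beside 12.1% of all genes. Forskolin and DMSO values did not overlap in 4 members, all of them higher (10.7% of all genes); no member was lower without overlap (9.46% of all genes). The median log2 fold change of the 15 was 0.48, against 0.00 over all tested genes, and 10 of 15 were above 0. That median is no evidence of a shift, because the filter itself favours genes that are high in a group. Kcnk10 and Kcnh1, for example, passed it with 1 DMSO library above the limit.

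**Figure D3:**
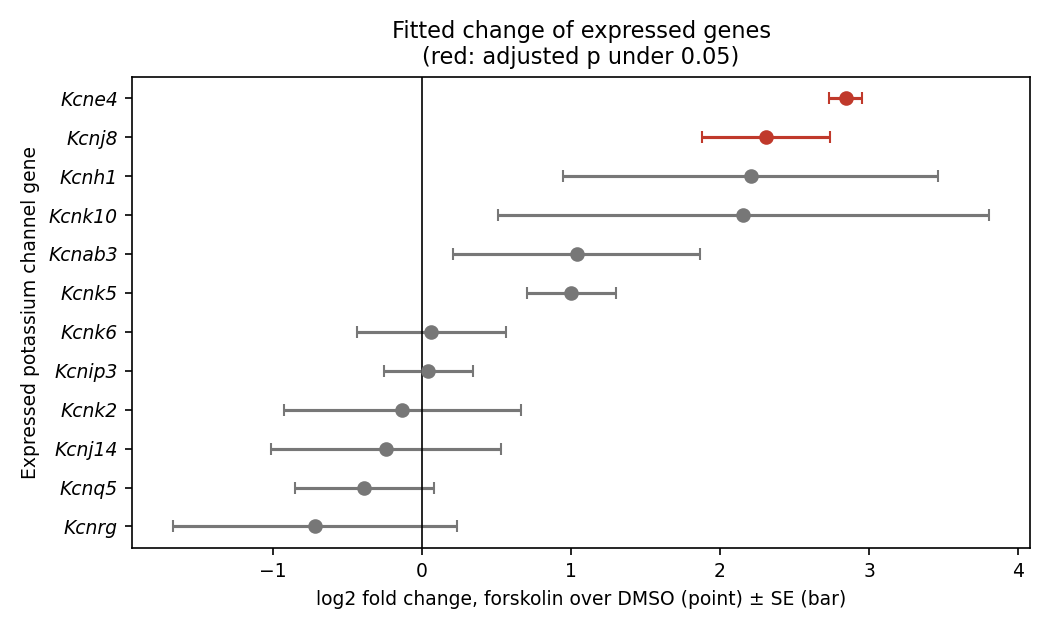
Fitted log2 fold change of forskolin over DMSO (points) with its SE (bars) for 12 of the 15 expressed genes, in order of size; red marks an adjusted p under 0.05. Kcne4 and Kcnj8 are red, and Kcne4 has the shortest bar of the 12.

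Kcne4 encodes a small accessory subunit with a single membrane span that mostly inhibits the voltage-gated channels it joins. The gene lies at chr1:78816911-78820032 on the plus strand (mm10, NM_021342). Its level was 35.3, 33.4 and 35.2 CPM in DMSO A, B and C, and 255, 237 and 253 CPM in forskolin A, B and C. Every forskolin library thus exceeded every DMSO library about equally, the shallow C pair included. The group means were 34.7 ± 1.07 and 248 ± 9.70 CPM (SD, n = 3), a 7.16-fold difference and a fitted log2 fold change of 2.84 ± 0.11 (SE). In each fit that left out a library the log2 fold change lay between 2.82 and 2.88. By p-value Kcne4 was in place 2 of all tested genes, and by size of rise in place 75. Gm29536, a noncoding gene on the opposite strand that spans the whole of Kcne4, is listed at 0 in all libraries. Strand was not kept in these libraries, so reads in any exon that this pair shares cannot be told apart. The overlap was taken from gene spans, and whether the exons overlap was not tested.

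The other genes of the Kcne group were nearly silent. Kcne1, Kcne3 and Kcne1l had no count in any library. At the set floor of 3 counts this allows up to 1.17 CPM in the shallowest one, or more if its counts are not independent. Kcne2 had 9 counts in 2 libraries. Some channels that KCNE4 is known to bind were scarce as well. Kcnq1 had 4.5 counts in 2 libraries, Kcna1 had 6 counts in 1 library and Kcna3 had none. None of these 3 genes reached the filter, while Kcne4 stood at 99.2 CPM per kb under forskolin.

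**Figure D4:**
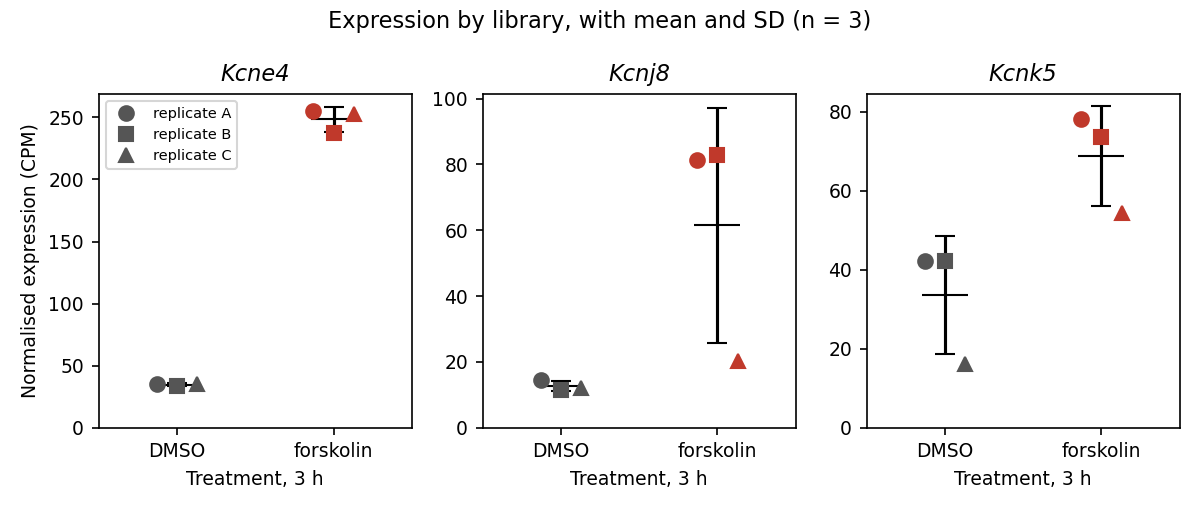
Normalised expression (CPM) of Kcne4, Kcnj8 and Kcnk5 in each library (points; shapes are replicates A, B and C) with group mean and SD (bars, n = 3). Kcne4 is tight in both groups; in Kcnj8 forskolin C, at 20.2 CPM, sits far below forskolin A and B, and in Kcnk5 DMSO C, at 16.3 CPM, sits below DMSO A and B.

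The remaining accessory genes did not pass the test. Kcnip3 encodes a calcium-binding protein (KChIP3, also called DREAM or calsenilin) that binds voltage-gated channels and also acts as a transcriptional repressor. It had 11.4, 13.9 and 15.2 CPM in DMSO and 15.8, 15.4 and 9.33 CPM with forskolin, overlapping ranges with a log2 fold change of 0.04 ± 0.30. Kcnab3, a cytoplasmic beta subunit, had 2.77, 4.05 and 0 CPM in DMSO A, B and C and 4.79, 5.39 and 5.05 CPM with forskolin. All forskolin values were the higher ones, but DMSO C held no count, and the change of 1.04 ± 0.83 had an adjusted p of 0.744. Kcnrg, a soluble protein that hinders channel assembly, had 2.19, 1.42 and 2.03 CPM in DMSO and 0.521, 0.929 and 2.33 CPM with forskolin (a fitted log2 difference of −0.72 ± 0.95 with an adjusted p of 0.877). Kcnrg lies inside Dleu2, a noncoding gene of the opposite strand at 9.13 CPM on average. The reads of Kcnrg are uncertain wherever exons of the pair overlap, which was not tested.

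Kcnj8 was the second gene called higher and the more abundant of 2 expressed inward rectifiers. It encodes the pore of the ATP-sensitive channel of vascular muscle and pericytes, which opens when ATP falls and which works with the sulfonylurea receptor encoded by Abcc9. Kcnj8 lies at chr6:142564837-142571614 on the minus strand (mm10, NM_008428), and Abcc9 is its neighbour, 16248 bases away on the same strand. Its level was 14.4, 11.5 and 12.2 CPM in DMSO A, B and C, and 81.3, 83.0 and 20.2 CPM in forskolin A, B and C. All forskolin values were above the DMSO ones, but forskolin C was close to them. The means of 12.7 ± 1.52 and 61.5 ± 35.8 CPM (SD, n = 3) correspond to a fitted log2 rise of 2.31 ± 0.43 (SE), with an adjusted p of 0.0165. The call was lost when any library but forskolin C was left out, at a log2 fold change of 2.06 without forskolin A (adjusted p = 0.0863), 2.03 without forskolin B (0.0659), 2.42 without DMSO A (0.0779), 2.23 without DMSO B (0.12) and 2.30 without DMSO C (0.0654). Without forskolin C the log2 fold change was 2.69 (adjusted p = 1.39e-05), and without both C libraries 2.67.

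Abcc9 itself did not pass. It stood at 40.3, 44.0 and 46.8 CPM in DMSO A, B and C and at 71.4, 62.5 and 27.6 CPM in forskolin A, B and C (a fitted log2 difference of 0.34 ± 0.28 with an adjusted p of 0.755). Forskolin C was the low library here as well, as it was for Kcnj8. Per kilobase, the ratio of Kcnj8 to Abcc9 was 1.06, 0.774 and 0.769 in DMSO A, B and C, and 3.36, 3.92 and 2.16 in forskolin A, B and C. The 2 transcripts were thus near parity in DMSO, and the ratio was above parity in all forskolin libraries, forskolin C included. In forskolin C the ratio rests in part on Abcc9, whose 27.6 CPM lay below all its DMSO values. The alternative pore gene Kcnj11 had 6 counts in 1 library and the alternative receptor gene Abcc8 had 3 counts in 1 library. Of the other inward rectifiers only Kcnj14 was expressed, with DMSO values of 2.33, 2.13 and 2.03 CPM and forskolin values of 1.25, 2.04 and 2.33 CPM, which overlapped. Kcnj2, the classical strong rectifier of muscle, had 30.5 counts in 5 libraries.

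Kcnk5 was the main tandem-pore gene. Such channels carry a steady leak current, and that of Kcnk5 opens in alkaline medium. The gene lies at chr14:20140058-20181782 on the minus strand (mm10, NM_021542). It had 42.2, 42.3 and 16.3 CPM in DMSO A, B and C and 78.2, 73.6 and 54.4 CPM in forskolin A, B and C. The groups did not overlap, and the C library was the lowest in both. The means were 33.6 ± 15.0 and 68.8 ± 12.6 CPM (SD, n = 3), and the log2 fold change of 1.00 ± 0.30 did not pass (adjusted p = 0.145). It did pass without both C libraries, at 0.84 ± 0.13 (adjusted p = 1.07e-04), where 3 of 17 tested members were called higher and 0 lower, beside 5.86% and 3.9% of all genes.

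**Figure D5:**
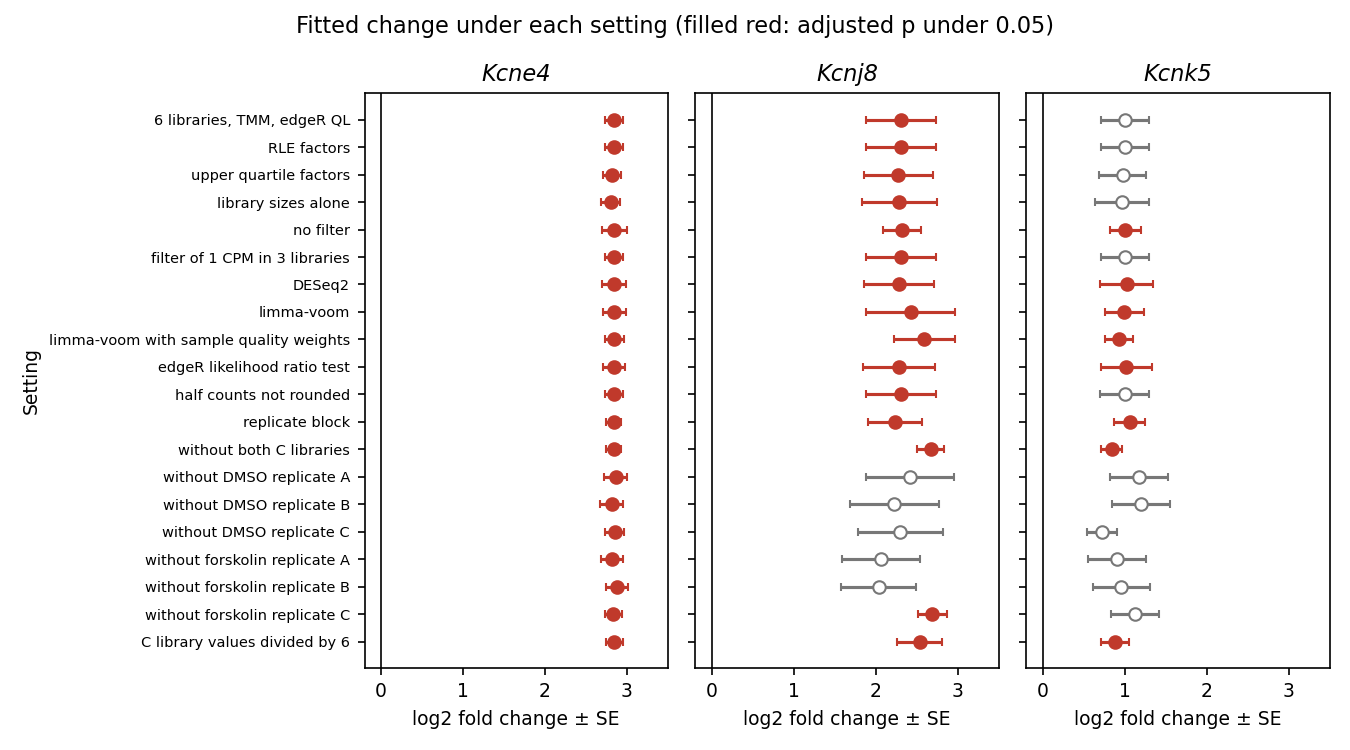
Fitted log2 fold change with its SE for Kcne4, Kcnj8 and Kcnk5 under each of 20 settings (rows); filled red points have an adjusted p under 0.05. Kcne4 is red in every row, Kcnj8 is not in 5 rows that leave out a library, and Kcnk5 is red in 8 rows.

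The other tandem-pore genes were low. Kcnk6 had 9.19, 5.06 and 4.07 CPM in DMSO and 6.36, 4.28 and 9.33 CPM with forskolin, so the groups overlapped (log2 change 0.06 ± 0.50). Kcnk2, the stretch-activated channel TREK-1 that protein kinase A inhibits, had 3.5, 1.82 and 4.07 CPM in DMSO and 1.46, 2.04 and 5.44 CPM with forskolin (−0.13 ± 0.79). Its relative Kcnk10 had counts in 1 DMSO library (2.71 CPM in DMSO C) and in all forskolin libraries (0.625, 2.14 and 7.0 CPM), with a change of 2.16 ± 1.65 that did not pass (adjusted p = 0.724). That change ran from 1.00 without forskolin C to 7.59 without DMSO C, where the DMSO group held no count and the fitted size depends on the prior count; it passed in neither fit. In both genes the C library was the highest of its group. A step of 6 counts was worth 2.03 CPM in DMSO C and 2.33 CPM in forskolin C, so values of this size there rest on few counts.

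Voltage-gated pore genes showed no call. The most abundant per kilobase was Kcnq5, a channel of the slowly activating M-current family, with 7.0, 6.28 and 5.08 CPM in DMSO and 5.42, 3.44 and 5.44 CPM with forskolin (a fitted log2 difference of −0.39 ± 0.47 with an adjusted p of 0.864). Kcnh1, a channel best known from neurons, had 0.292, 1.22 and 0 CPM in DMSO and 0.417, 2.42 and 6.22 CPM with forskolin. The groups overlapped, and the fitted change of 2.21 ± 1.26 did not pass (adjusted p = 0.574). Kcnma1, the pore of the large-conductance calcium-activated channel of smooth muscle, had 22.5 counts in 3 libraries, and its smooth muscle beta subunit gene Kcnmb1 had 19.5 counts in 4. Kcnn4, the intermediate-conductance calcium-activated channel of fibroblasts and immune cells, had 6.5 counts in 2 libraries.

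Genes that work beside these channels were followed through fixed lists. For comparison, 2.22% of all tested genes were called higher, 0.572% lower, and 12.1% had an unadjusted p under 0.05. At these shares a short list can easily hold no call. Of 13 tested partner subunits and other potassium transporters, none passed in either direction, 1 had an unadjusted p under 0.05, and the median log2 fold change was 0.02. In this list the sodium-potassium pump subunit Atp1b3 was among the most abundant genes per kilobase, with 322 ± 49.7 CPM in DMSO, 362 ± 76.1 CPM with forskolin and a log2 fold change of 0.17 ± 0.17. Slc12a2, the sodium-potassium-chloride importer, had the smallest p of the list, with 131 ± 8.17 CPM in DMSO and 173 ± 6.52 CPM with forskolin (0.41 ± 0.10, adjusted p = 0.0748); it is named for that p, after its value was seen. Of 8 tested voltage-gated calcium channel genes none passed or had an unadjusted p under 0.05, with a median of −0.04. The most abundant was Cacna2d1, an auxiliary subunit, at 74.7 and 77.7 CPM. Cacna1c, the pore of the L-type channel, was at 1.53 and 1.20 CPM. Of 10 sodium and chloride channel genes 1 rose and none fell, beside 2.22% and 0.572% of all genes. In this list 2 had an unadjusted p under 0.05, and the median was −0.02. It was Clcn4, a chloride-proton exchanger of endosomes, which went from 110 ± 6.21 to 189 ± 11 CPM (0.78 ± 0.10, adjusted p = 0.0022).

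The upstream sequences of the called genes were read for the letters of the cAMP response element, the site bound by CREB family factors. RefSeq promoters (GRCm38.p6) were found for 69 of the 94 members and for 9 of the 15 expressed ones, and the 250 bases before the start were searched on both strands. The full element TGACGTCA was in none of the 69, beside 1.77% of all 27025 genes in the table (1.55% of its 32851 promoters of that length). Its core TGACG, which the full element also contains, was in 15 of the 69 members (21.7%), beside 19.8% of all genes and 17.8% of all promoters. Among the expressed members it was in Kcne4, 50 to 46 bases before the start, in Kcnj8 on the opposite strand, 87 to 83 bases before it, and in Kcnrg. The shared letters are shown in capitals in 30 bases of each, written 5′ to 3′ on the gene's strand, for chr1:78816849-78816878, chr6:142571684-142571713 and chr14:61607351-61607380.
Kcne4: tcccggaacacgTGACGatgcatttcttga
Kcnj8: aaaatctctttgCGTCAgtgaacttgggct
Kcnrg: cactatttgtctTGACGatagttaccttgg

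The core thus stands in both genes called higher, and also in Kcnrg, which was not called. A match of 5 letters is a description and not a binding site. In Kcne4 it lies in the last 153 bases before the RefSeq start, which GENCODE M21 places in the first exon of a Kcne4 transcript that starts farther upstream. For Kcnj8 the whole upstream stretch is shown, chr6:142571615-142571864 on the minus strand with the core in capitals, since no GENCODE exon of the gene lies in it. For Kcnk5, which holds no core, the stretch is chr14:20181810-20182032, up to the base before the first GENCODE exon.
Kcnj8: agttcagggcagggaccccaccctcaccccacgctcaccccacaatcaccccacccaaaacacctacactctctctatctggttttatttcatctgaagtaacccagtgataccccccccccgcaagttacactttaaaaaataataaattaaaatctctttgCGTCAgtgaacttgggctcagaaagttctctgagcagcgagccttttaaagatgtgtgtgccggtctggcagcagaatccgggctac
Kcnk5: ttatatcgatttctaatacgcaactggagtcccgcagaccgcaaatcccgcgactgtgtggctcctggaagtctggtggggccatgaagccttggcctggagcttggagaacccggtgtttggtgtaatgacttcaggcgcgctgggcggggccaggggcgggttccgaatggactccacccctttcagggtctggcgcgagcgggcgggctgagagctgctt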

How the data were processed

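Polyadenylated RNA of 6 libraries was sequenced, 3 per group. Exon reads per gene were deposited by the authors in a single table, not adjusted for depth per the file headers. These deposited values come in steps of 0.5, and each was treated like an estimated count and rounded to a whole number. STAR, HOMER and mm10 are named in the submitters' processing notes; tool versions, duplicate handling and the counting rule were each not given in the sources used here. No value column lacked a sample (0). All genes were fitted in R 4.3.3 with edgeR 4.0.16 (filterByExpr, TMM, robust quasi-likelihood F test, Benjamini-Hochberg adjustment over 12233 genes, threshold 0.05). The test was also run on simulated counts with the same dispersion for all genes. These counts lack the clustering of low values seen in the C libraries, so that run does not cover it. CPM uses TMM-scaled library sizes, except that summed markers use column totals. The SE is the absolute log2 fold change over the square root of F. Members and lists were chosen with earlier results of these data known. Given with values in every library were called members, the 12 most abundant per kb and those with an unadjusted p under 0.05; up to 4 called and 2 most abundant genes per related list were named, and genes outside this were named after their values were seen. Some genes that the rule takes are not reported here, but they stayed in every fit and count over the family. Alternatives used DESeq2 1.42.0, limma 3.58.1, other scalings and filters, a replicate block and left-out libraries. One alternative, dividing C library values by 6, was added after seeing the data.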

Additional observations from a re-analysis of the deposited data

How the results depend on the processing

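Of 208 refits of single genes (11 genes under up to 19 alternatives), 180 kept their direction and their side of the threshold. The 2 members called higher became 3 under 8 alternatives (no filter, DESeq2, limma-voom with and without sample quality weights, the likelihood ratio test, the replicate block, without both C libraries, and C library values divided by 6), with Kcnk5 as the third, and 1 to 2 when a library was left out. No alternative called a member lower. The share of all genes called in either direction was 2.8% in the main fit. Under the 8 alternatives with 3 members it ran from 2.56% (DESeq2) to 9.76% (without both C libraries), and only DESeq2 lay below the main fit. With a single library left out it ran from 1.49% (without DMSO B) to 3.77% (without forskolin C). Whether the letters A, B and C pair the libraries was not settled. Deviations of same-letter libraries correlated at 0.0476, 0.133 and 0.15. Forskolin B and C correlated best with the DMSO library of their own letter, but forskolin A correlated best with DMSO B (0.103). With the replicate block 3 members were called higher, and Kcnk5 had a log2 fold change of 1.06 (adjusted p = 0.00924). Over all tested genes the block gave 649 calls, against 342 without it. Among the 11 genes, calls changed in Kcnk5 and Kcnj8 only, but signs turned in low genes. Kcnk6 was at −0.16 by limma-voom, −0.25 with sample quality weights, −0.42 without both C libraries and −0.25 with C library values divided by 6. Over the fits that left out a library, Kcnk6 ran from −0.22 to 0.50, Kcnip3 from −0.081 to 0.23, Kcnk2 from −0.80 to 0.23 and Kcnj14 from −0.39 to 0.0036. The causes were not tested. Without division by length, the 5 most abundant genes held their places, Kcnq5 moved from place 10 to 6 and Kcnrg from 7 to 13. Depth limits the members with few counts, most of all in the C libraries.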
